A study of Mus musculus with 66 samples.

Results

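The comparison of cocaine with saline in iMSN-D2RKO mice at zeitgeber time (ZT) 7 rests on 6 of the 66 libraries of the study, 3 from mice given cocaine and 3 from mice given saline. It covers the genes that reached at least 1 FPKM, a fragment number scaled to transcript length and library size, in at least 1 of these 6 libraries, which holds for 13743 of the 24138 genes listed. Both groups were adult male C57BL/6 mice that lack the dopamine D2 receptor (D2R) in indirect pathway medium spiny neurons (iMSNs). They differed in the intraperitoneal injection given at ZT3, 20 mg/kg cocaine or its saline vehicle, and the ventral striatum, which holds the NAcc, was collected 4 h later. Wild-type (WT) mice with the same injections, the later time points ZT11 to ZT23 and a ZT3 group for the time of injection make up the rest of the series. The question was how the ventral striatum without D2R on iMSNs responds to a single dose of cocaine. The deletion came from crossing D2R flox/flox mice with mice in which the D1R promoter drives Cre, so other cells of the punch could keep their D2R. The labels do not say how many animals a library holds, and p-values therefore rest on the spread between libraries. In the main tests that spread was estimated from all 66 libraries.

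Medium spiny neurons are the main output cells of the striatum. Those of the direct pathway carry the D1 receptor, which raises cAMP, and make dynorphin and tachykinin peptides, whereas iMSNs carry D2R and an adenosine receptor and make enkephalin, and D2R lowers cAMP in them. Cocaine blocks the dopamine transporter, so dopamine stays longer at both receptors, and in the intact striatum immediate early genes such as Fos and Egr1 respond within the first hours and peptide genes such as Pdyn later.

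The 6 libraries were not alike. Total FPKM was 690048 in saline 1, against 392640 to 410697 in the other 5 and 364078 to 465297 in the 65 other libraries of the series. Read numbers are not known, and a relative depth estimated from rarely detected genes was 0.371 in saline 1 and 0.663 to 0.951 in the other 5, where 1 is the median library. Abundant genes made up the higher total: Fth1, which encodes ferritin heavy chain, was at 16842 FPKM in saline 1 and at 2287 to 5425 in the other 5, and the 50 most abundant genes held 22.4% of its total against 12.8 to 14.7% in the others. Relative to saline 2 and 3, saline 1 was higher by a median of 0.42 on the log2(FPKM + 1) scale for the 3244 genes with transcripts of 500 to under 1000 bases and differed by −0.76 for the 623 genes of at least 4000 bases. Cocaine 2 was one of 13 libraries of the series that stood apart on the axis with the most within-group variance, which held 43.6% of it. Its score was 47.6, against −32.7 to −1.87 in the other 5. Of 9567 genes with a mean above 5 FPKM over the series, 25.3 to 40.7% differed by over 2-fold between saline 1 and each other library, 8.90 to 15.2% between cocaine 2 and each of the other 4, and 0.491 to 1.12% between any 2 of the remaining 4. Results are therefore also given without saline 1 and, where stated as without both, without saline 1 and the 13 libraries that stood apart.

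**Figure D1:**
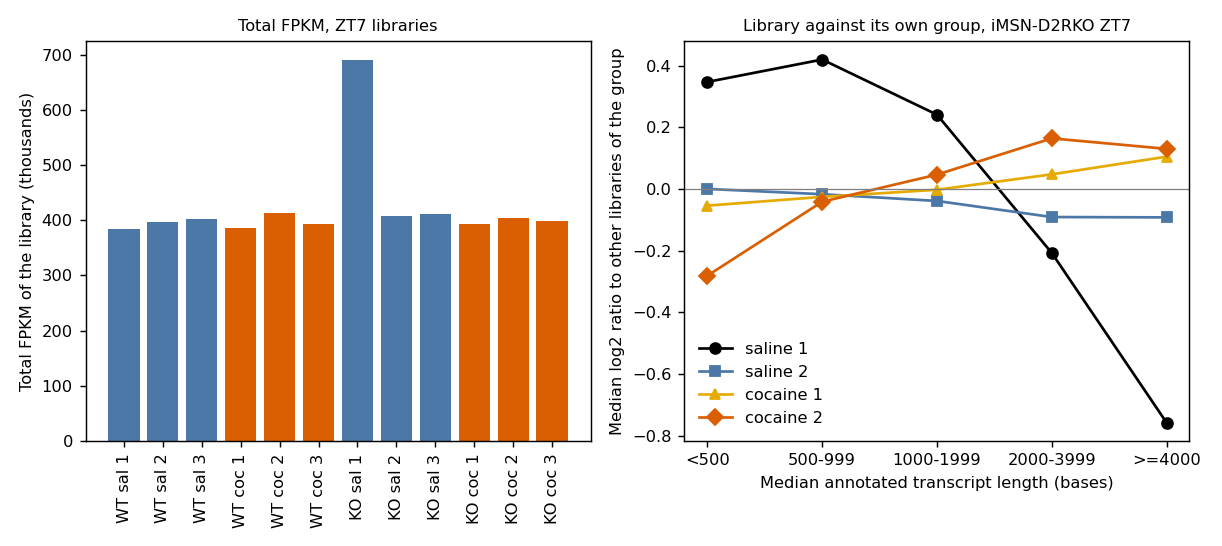
Left, total FPKM of each ZT7 library, with the axis divided by 1000 (KO, iMSN-D2RKO; sal, saline; coc, cocaine), where iMSN-D2RKO saline 1 reaches 690048 FPKM and the other 11 lie between 384279 and 413939. Right, median log2 ratio of a library to the other libraries of its group (for saline 2 and cocaine 1, to replicate 3) by annotated transcript length, where saline 1 goes from 0.42 for transcripts of 500 to under 1000 bases to −0.76 at 4000 bases and above.

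Drd2, which encodes D2R (XLOC_021915, chromosome 9 from 49340627 to 49408177, mm10), was the targeted gene. It was at 375, 103 and 157 FPKM in saline 1 to 3 and at 129, 229 and 118 FPKM in cocaine 1 to 3, and the 6 WT libraries of ZT7 lay between 104 and 166 FPKM. The iMSN-D2RKO libraries had a mean of 185 ± 103 FPKM and the WT libraries 125 ± 22.2 (SD, n = 6). The difference of 0.43 on the log2 scale was not past the threshold (exact two-sided permutation test, p = 0.203), and the highest values were those of saline 1 and cocaine 2. The FPKM sums over the exons of the gene, and the sources used here do not give the floxed part, so the value neither shows nor checks the deletion. Within the comparison the log2 change of Drd2 was −0.27 with all 6 libraries and 0.25 without saline 1.

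Defining genes of spiny neurons were abundant in every library. Ppp1r1b, which encodes the dopamine-regulated phosphoprotein DARPP-32, was at 3779, 1232 and 1673 FPKM in saline and at 1557, 966 and 1502 FPKM in cocaine. Drd1, which encodes the D1 receptor of the direct pathway, was at 95.9, 101 and 133 FPKM in saline and at 154, 75.4 and 129 FPKM in cocaine. The ranges of both genes overlapped between the groups, as did the summed level of 14 spiny neuron markers, 5314 to 15904 FPKM in saline and 5698 to 7057 FPKM in cocaine.

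Summed levels of markers of other tissues differed between the libraries. The 12 markers of cortical projection neurons, which lie next to the ventral striatum, summed to 5848, 956 and 1953 FPKM in saline and to 949, 804 and 1028 FPKM in cocaine, and all 11 that were tested had a lower mean of log2 values in cocaine. Their median log2 change was −1.02 with all 6 libraries, −0.99 without saline 1 and −1.26 without both, beside −0.49 in WT. A single marker, Nrgn, made up most of each sum, at 5181, 646 and 1441 FPKM in saline and at 785, 607 and 775 FPKM in cocaine. It was among the genes that raised the total of saline 1. Its log2 change was −1.24, −0.43 without saline 1 and 0.37 in WT. Slc17a7, the vesicular glutamate transporter of cortical neurons, was at 83.5, 99.0 and 169 FPKM in saline and at 17.5, 20.2 and 64.7 FPKM in cocaine, so the groups did not overlap. The 6 blood markers listed summed to 636, 209 and 219 FPKM in saline and to 139, 110 and 183 FPKM in cocaine, also without overlap. None of these genes passed the adjusted test. In a bulk sample, more cells of a type and more RNA per cell cannot be told apart.

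Saline 3 carried mRNAs of liver. Alb, which encodes serum albumin, was at 18.1 FPKM there and at 0.0714 to 0.237 FPKM in the other 5 libraries, and Fabp1, which encodes the liver fatty acid-binding protein, was at 14.3 FPKM against 0 to 0.207 FPKM. The major urinary protein gene Mup9 was at 7.79 FPKM and the cytochrome gene Cyp2e1 at 6.88 FPKM in saline 3, with no other library of the comparison above 0.129 FPKM for either. This set was chosen after its values were seen. The microRNA gene Mir486 was at 46.6 FPKM in saline 3 and listed at 0 in the other 5, but a poly(A) library does not measure a mature microRNA.

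**Figure D2:**
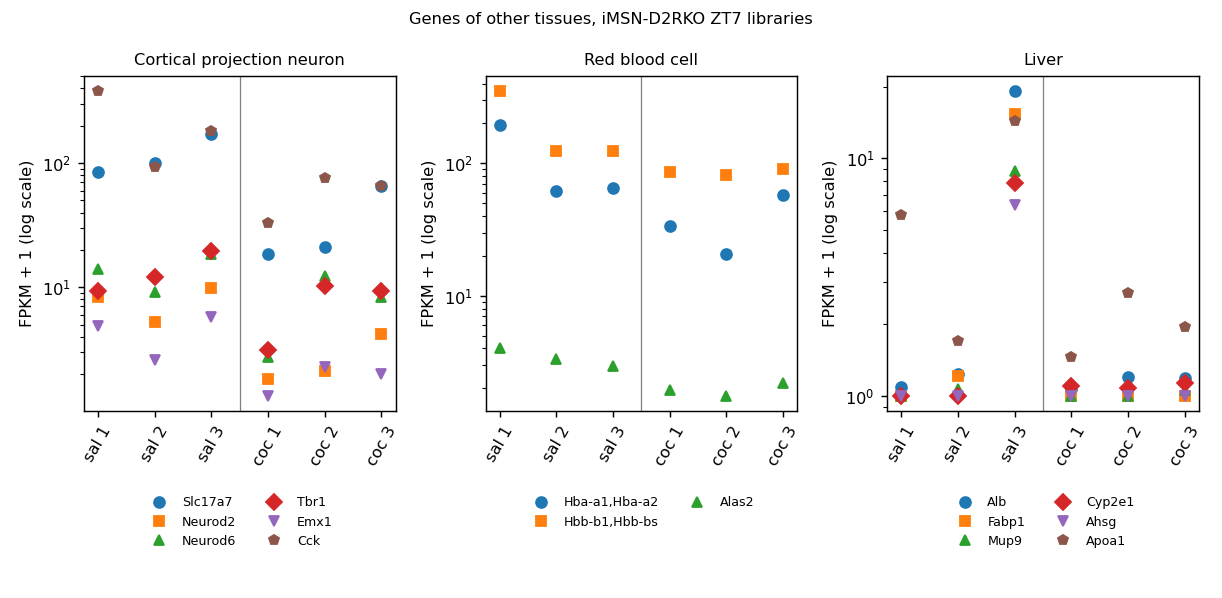
FPKM + 1 on a log axis in the 6 iMSN-D2RKO libraries of ZT7 (sal, saline; coc, cocaine) for markers of cortical projection neurons, red blood cells and liver, 1 symbol per gene. Slc17a7 is higher in the 3 saline libraries (83.5 to 169 FPKM) than in the 3 cocaine libraries (17.5 to 64.7 FPKM), and the liver gene Alb stands out in saline 3 at 18.1 FPKM.

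With all 6 libraries, 0 genes were higher and 2 genes were lower after cocaine (limma on log2(FPKM + 1), Benjamini-Hochberg adjusted p under 0.05), 0.0146% of those tested. At an unadjusted p under 0.05 there were 1634 higher and 1676 lower genes, 11.9% and 12.2% of those tested and 24.1% in both directions. Without saline 1 there were 348 higher (2.53%) and 363 lower genes (2.64%), 5.17% in both directions, and 426 of the 3310 genes remained past that p. Without both there were 448 higher (3.26%) and 349 lower genes (2.54%), 5.8% in both directions, and 1 gene (0.00728%), Klf4, passed the adjusted test in limma, with a lower value in cocaine. The limma fit took its estimate of the spread from all 66 libraries, and the count hung on single libraries: it was 1645 without saline 2 and 2151 without saline 3, which both leave saline 1 with 1 other saline library, 5 without saline 1 and 1 without cocaine 1. In a fit of the 6 libraries alone 0 genes were called and 433 had an unadjusted p under 0.05.

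Cd72 (XLOC_015009, chromosome 4 from 43446462 to 43454628, minus strand, mm10), which encodes a coreceptor of B cells, was lower in the cocaine libraries than in the saline libraries. It was at 7.03, 0.974 and 3.07 FPKM in saline and at 0.406, 0.265 and 0.214 FPKM in cocaine, a mean of 3.69 ± 3.08 against 0.295 ± 0.0997 FPKM (SD, n = 3). The groups did not overlap, and it was saline that stood out: the 63 libraries outside this saline group had a median of 0.280 FPKM, and 2 of them reached the lowest of the 3 saline values. Cd72 reached the filter of 1 FPKM only in saline 1 and 3, so it was tested through the group where it was high. The log2 change was −1.63 with a standard error of 0.268 (limma, adjusted p = 0.00258). Without saline 1 it was −1.13 and no longer passed (limma, adjusted p = 0.104). Of other B cell genes, a list chosen after the values were seen, the defining genes Cd79a and Ms4a1 were close to 0, at 0 to 0.304 FPKM and 0 to 0.0224 FPKM. Blnk, an adaptor gene of B cell receptor signalling, was at 4.99, 2.87 and 4.15 FPKM in saline and at 1.64, 2.15 and 2.13 FPKM in cocaine, without overlap (limma, adjusted p = 0.138). Ptprc, a gene of all leukocytes, had values in the other direction, at 0.324, 0.677 and 0.617 FPKM in saline and at 0.772, 1.30 and 0.621 FPKM in cocaine (limma, adjusted p = 0.171). Cd72 overlaps the 3′ part of Tesk1, a kinase gene on the other strand, by 1603 bases. Whether the counting used strand is not stated, so reads of the pair may not have been told apart. Tesk1 itself was at 54.7, 42.4 and 48.2 FPKM in saline and at 32.6, 20.6 and 39.3 FPKM in cocaine.

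Lsr (XLOC_019699, chromosome 7 from 30957770 to 30973464, minus strand), which encodes the lipolysis-stimulated lipoprotein receptor, a protein of the tight junctions where 3 cells meet, was also lower in the cocaine libraries. It was at 8.68, 5.29 and 4.98 FPKM in saline and at 2.54, 3.17 and 3.37 FPKM in cocaine, a mean of 6.32 ± 2.05 against 3.03 ± 0.435 FPKM (SD, n = 3). Each saline value lay above each cocaine value, and 5 of the 63 other libraries reached the lowest saline value. The log2 change was −0.83 with a standard error of 0.150 (limma, adjusted p = 0.00836), and without saline 1 it was −0.61 (limma, adjusted p = 0.272). Lsr overlaps a pair of antisense genes, one of them, Gm4673, by 3850 bases. At ZT3, the time of injection, the iMSN-D2RKO libraries had 3.92, 4.90 and 6.10 FPKM of Lsr, and in WT at ZT7 it was at 3.24 to 3.56 FPKM in saline and at 3.10 to 4.16 FPKM in cocaine.

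Without saline 1, 5 genes were lower and 0 were higher (limma, adjusted p under 0.05), 0.0364% of those tested, and neither Cd72 nor Lsr was among them. Klf4 (XLOC_015066, chromosome 4 from 55527143 to 55532466, minus strand), an immediate early gene that encodes a Krüppel-like transcription factor, was at 3.39 and 3.08 FPKM in saline 2 and 3 and at 1.17, 0.971 and 1.25 FPKM in cocaine. Saline 1 held 1.05 FPKM, which is within the cocaine range, so with all 6 libraries the groups overlapped. The log2 change was −0.99 without saline 1 (limma, adjusted p = 0.0234), −0.94 without both libraries (limma, adjusted p = 0.0308) and −0.64 with all 6 (limma, adjusted p = 0.103). The other 4 genes called without saline 1 were Cyp2c29, Mup16, the joined entry Gm2083 and Mup17, and Mir486. Each of them rested on saline 3 alone, with 2.04, 2.79, 2.35 and 46.6 FPKM there and at most 0.0640 FPKM in every other library of the comparison. Saline 3 was also the only library through which they reached the filter of 1 FPKM. Mup genes are near-identical copies whose reads may be split between them. These 5 genes were named after their values were seen.

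The promoters of Cd72, Lsr and Klf4 are shown because these are the called genes whose lower level in cocaine did not rest on a single library. Each window runs 5′ to 3′ on the gene's own strand from 250 bases before to 50 bases after the start, from RefSeq on GRCm38.p6, the build called mm10, at chr4:43454577-43454876 for Cd72, chr7:30973420-30973719 for Lsr and chr4:55532426-55532725 for Klf4. Capitals mark the motif matches.
Cd72: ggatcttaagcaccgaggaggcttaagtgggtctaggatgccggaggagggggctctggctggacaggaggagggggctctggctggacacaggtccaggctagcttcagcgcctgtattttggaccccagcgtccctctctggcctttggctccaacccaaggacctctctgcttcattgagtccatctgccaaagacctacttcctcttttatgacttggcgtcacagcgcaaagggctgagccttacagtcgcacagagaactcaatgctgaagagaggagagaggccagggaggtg
Lsr: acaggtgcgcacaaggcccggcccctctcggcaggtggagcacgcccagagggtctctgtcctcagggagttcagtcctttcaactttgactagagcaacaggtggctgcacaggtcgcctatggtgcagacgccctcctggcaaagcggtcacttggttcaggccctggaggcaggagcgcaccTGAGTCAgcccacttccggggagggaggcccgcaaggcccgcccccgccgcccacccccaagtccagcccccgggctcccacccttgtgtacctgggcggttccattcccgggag
Klf4: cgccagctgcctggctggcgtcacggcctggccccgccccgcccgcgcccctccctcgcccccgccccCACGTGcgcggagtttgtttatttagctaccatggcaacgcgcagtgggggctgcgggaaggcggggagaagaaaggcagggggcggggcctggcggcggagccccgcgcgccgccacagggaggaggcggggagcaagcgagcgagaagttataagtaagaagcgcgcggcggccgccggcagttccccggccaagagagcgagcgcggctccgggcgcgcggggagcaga
Searched on both strands were the CRE TGACGTCA, the AP-1 motif TGANTCA, the E-box CACGTG, the D-box TTANGTAA, the PPAR element (DR1), the glucocorticoid response element and the heat shock element. The Lsr window holds 1 AP-1 motif, as do 7.81% of the 32851 windows in the table, and the Klf4 window holds 1 E-box, as do 7.15% of them. The Cd72 window held none of these letters. A match of letters is a description and not a binding site.

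Cldn5 (XLOC_007855, chromosome 16 from 18776847 to 18778262), which encodes the main claudin of the blood-brain barrier, was the endothelial gene with the smallest p-value. It was at 80.3, 54.2 and 46.4 FPKM in saline and at 21, 16.1 and 30.5 FPKM in cocaine, a mean of 60.3 ± 17.7 against 22.5 ± 7.30 FPKM (SD, n = 3). The groups did not overlap, but the log2 change of −1.39 missed the adjusted threshold (limma, adjusted p = 0.0902), and without saline 1 it was −1.17 (limma, adjusted p = 0.767). In iMSN-D2RKO mice at ZT3 the gene was at 60.5, 69.5 and 84.1 FPKM, and in WT at ZT7 at 39.4 to 51.6 FPKM in saline and 30.4 to 42.1 FPKM in cocaine. Among the other 10 endothelial markers, Pecam1, an adhesion molecule of these cells, was at 6.17, 6.62 and 7.72 FPKM in saline and at 6.80, 4.78 and 6.83 FPKM in cocaine, with overlap. The median log2 change of the 11 markers was 0.09 with all 6 libraries and −0.05 without saline 1.

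**Figure D3:**
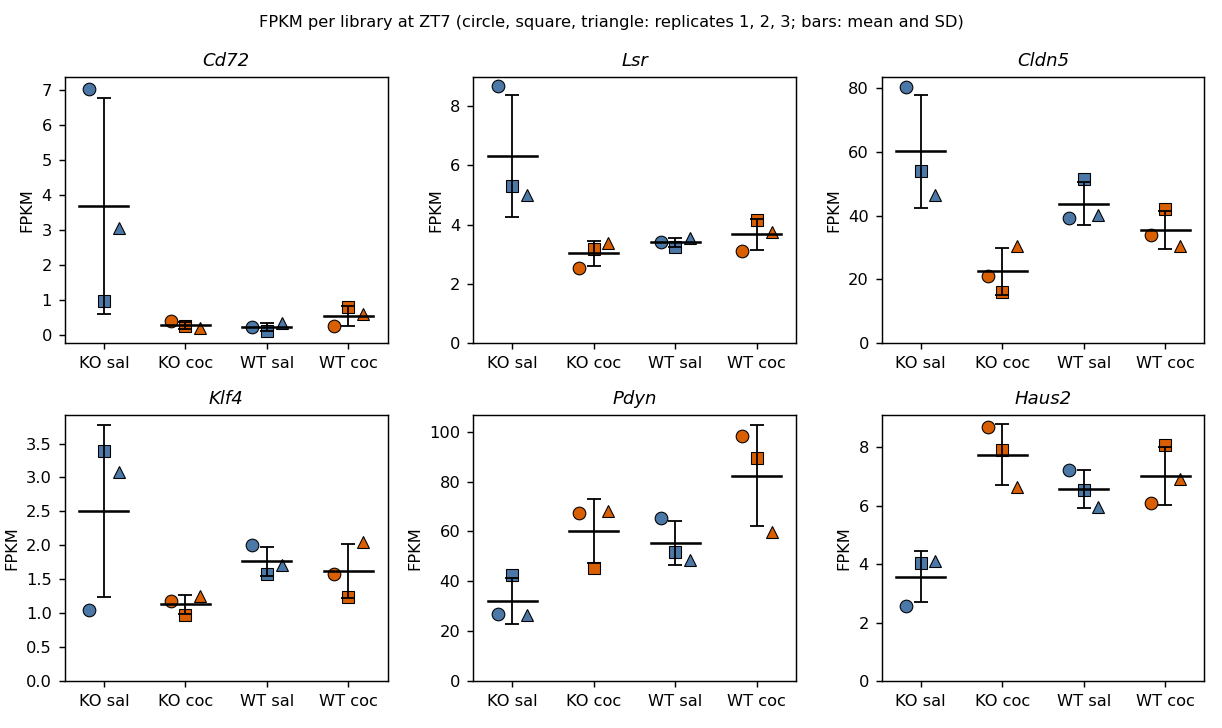
FPKM per library at ZT7 for 6 genes in iMSN-D2RKO (KO) and WT, in saline (blue) and cocaine (orange). Circles, squares and triangles are replicates 1, 2 and 3, and bars give the mean and SD. Cd72, Lsr and Cldn5 are lower and Pdyn and Haus2 higher in the 3 iMSN-D2RKO cocaine libraries than in the 3 saline libraries, and for Klf4 saline 1 (1.05 FPKM) lies among the cocaine values.

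No other gene passed the adjusted threshold, and those with the smallest p-values and a mean of at least 5 FPKM over the 6 libraries are given as values. The 10 genes higher and 8 genes lower in cocaine chosen in this way had adjusted p-values of 0.0796 to 0.0902 (limma). All 18 had groups that did not overlap, so leaving out saline 1 could not turn their direction. Without saline 1 their adjusted p-values were 0.619 to 0.767 (limma). Haus2, which encodes a subunit of the augmin complex that branches microtubules, led the higher genes. It was at 2.57, 4.05 and 4.10 FPKM in saline and at 8.70, 7.92 and 6.64 FPKM in cocaine, a log2 change of 0.95 with all 6 libraries and of 0.78 without saline 1. In WT it was at 5.95 to 7.24 FPKM in saline and at 6.10 to 8.07 FPKM in cocaine. Sox8, a transcription factor gene of the oligodendrocyte lineage, was at 17.3, 25.7 and 20.8 FPKM in saline and at 28.5, 37.0 and 32.2 FPKM in cocaine, and Vat1l was at 39.7, 62.3 and 49.1 FPKM in saline and at 74.4, 89.4 and 70.8 FPKM in cocaine. For the kinase genes Stk26 and Riok3, for Dnajc10, which encodes an ER disulfide reductase, and for Rimklb, Erlin1 and Zfp941 the log2 changes lay between 0.40 and 1.501 with all 6 libraries and between 0.26 and 0.63 without saline 1. Dzank1 depended on saline 1, with a log2 change of 0.86 with all 6 libraries and of 0.26 without it: it was at 13.4 FPKM in saline 1 but at 50.2 and 47.0 FPKM in saline 2 and 3, against 54.5 to 64.7 FPKM in cocaine.

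Among the 8 lower genes, Zyx encodes zyxin, a protein of focal adhesions and actin fibres. It was at 19.4, 15.3 and 13.5 FPKM in saline and at 8.10, 9.23 and 11.1 FPKM in cocaine, a log2 change of −0.70 that was −0.56 without saline 1. Olfm1, which encodes the secreted neuronal protein olfactomedin 1, was at 592, 251 and 316 FPKM in saline and at 123, 146 and 176 FPKM in cocaine, and its log2 change went from −1.29 to −0.94 without saline 1. Eef1a2, the elongation factor of neurons and muscle, was at 1256, 651 and 663 FPKM in saline and at 533, 441 and 559 FPKM in cocaine. Saline 1 was the highest library and cocaine 2 the lowest, and the log2 change of −0.68 was −0.27 without both. Slc35c2, Shisa4, Rell2 and Paqr4 had log2 changes of −0.67 to −0.95 with all 6 libraries and of −0.34 to −0.61 without saline 1.

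In 1102 genes (8.02%) every cocaine value lay above every saline value, and in 1017 genes (7.4%) below, 15.4% in either direction. Without saline 1 the groups did not overlap in 25.9% of genes. Smaller groups overlap less often whatever the treatment, so these shares cannot be set against each other. Among genes with a mean of at least 5 FPKM, P2ry1, which encodes a purinergic receptor for ADP, was one of those with the widest gap on the higher side. It was at 2.57, 4.32 and 1.99 FPKM in saline and at 6.51, 11.9 and 6.49 FPKM in cocaine, with a log2 change of 1.23 and 1.17 without saline 1, while WT libraries of ZT7 had 4.89 to 9.16 FPKM. Man1a, a Golgi mannosidase gene, was at 6.36, 25.7 and 24.2 FPKM in saline and at 37.7, 33.9 and 36.1 FPKM in cocaine. Mest, an imprinted gene, was at 8.18, 10.9 and 10.3 FPKM in saline and at 14.6, 19.2 and 14.4 FPKM in cocaine. On the lower side, Rtn4r, which encodes the Nogo receptor, was at 18.4, 11.4 and 18.2 FPKM in saline and at 2.70, 5.32 and 5.76 FPKM in cocaine. Slc30a3, the zinc transporter of synaptic vesicles in cortical glutamate neurons, was at 9.52, 5.91 and 12 FPKM in saline and at 0.819, 1.62 and 2.79 FPKM in cocaine. The log2 changes of Rtn4r and Slc30a3 were −1.62 and −1.90 with all 6 libraries and −1.51 and −1.85 without saline 1, and in WT −0.98 and −0.66. Necab3 and Galnt9 had changes of −1.27 and −1.30. The cortical markers given above were lower in the same libraries, and their part in these values was not tested. The ribosomal protein gene Rpl34, with many processed copies in the genome, was at 12.8 to 15.1 FPKM in saline and at 0.859 to 6.39 FPKM in cocaine.

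**Figure D4:**
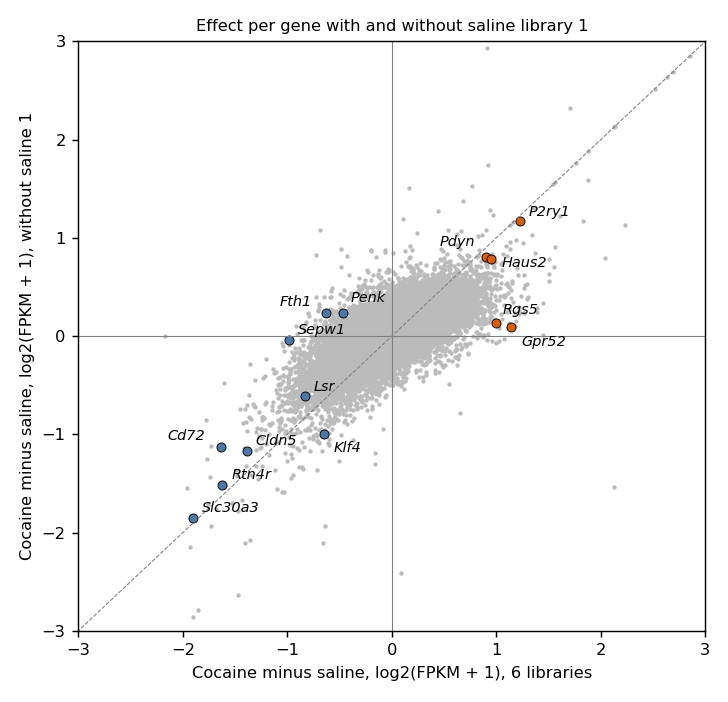
Change after cocaine in iMSN-D2RKO at ZT7 for 13743 genes on the log2(FPKM + 1) scale, with all 6 libraries (x axis) and without saline 1 (y axis), where the dashed line marks equal values and 12 genes lie outside the frame. Gpr52 (1.14 and 0.09), Rgs5 (0.996 and 0.14) and Sepw1 (−0.98 and −0.04) lie near 0 without saline 1, while Rtn4r, Slc30a3, P2ry1, Pdyn and Haus2 lie close to the line.

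No immediate early gene of the Fos and Jun family passed the test 4 h after cocaine. Of the 7 tested, 2 had an unadjusted p under 0.05 with lower values, beside 12.2% of all genes tested, and the median log2 change was −0.40, beside −0.0048 for all genes tested and 0.16 for the same genes in WT. Fos, the reference marker of neuronal activation, was at 2.46, 4.16 and 4.44 FPKM in saline and at 1.90, 2.09 and 4.52 FPKM in cocaine, with overlap. Fosb, whose truncated product accumulates under repeated cocaine, was at 2.49, 4.57 and 5.48 FPKM in saline and at 4.72, 2.85 and 5.46 FPKM in cocaine. Jun was at 22.6, 19.6 and 19 FPKM in saline and at 12.4, 18.5 and 15.1 FPKM in cocaine, so the groups did not overlap, and its log2 change was −0.40 (limma, unadjusted p = 0.0400). Without saline 1, 7 of the 7 log2 changes were below 0. Of these, 0 had an unadjusted p under 0.05, beside 2.64% of all genes tested. The median was −0.33 without saline 1 and −0.21 without both libraries. Without both, Fosb (0.02) and Junb (0.06) were above 0 and the other members below.

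With all 6 libraries the 13 Egr, Nr4a and related early factors gave no call either, with 10 log2 changes below 0. Of these, 3 had an unadjusted p under 0.05, beside 12.2% of all genes tested, and 0 passed the adjusted threshold (limma). Their median was −0.38 with all 6 libraries, −0.30 without saline 1, −0.38 without both libraries and 0.10 in WT. Klf4, given above, belongs to this list and passed the adjusted test without saline 1 and without both (limma). Klf2, which encodes a Krüppel-like factor abundant in endothelium, was at 9.11, 7.12 and 5.20 FPKM in saline and at 3.27, 2.74 and 4.80 FPKM in cocaine. Its log2 change of −0.82 (limma, adjusted p = 0.0932) was −0.65 without saline 1. Egr1 was at 112, 93.4 and 128 FPKM in saline and at 71.1, 108 and 90.1 FPKM in cocaine. Egr3 was at 31.1, 46.1 and 70.4 FPKM in saline and at 60.8, 59.1 and 70.9 FPKM in cocaine. Nr4a1, an orphan nuclear receptor gene, was at 71.9, 42.8 and 62.2 FPKM in saline and at 41.8, 37.4 and 54.5 FPKM in cocaine, so of the genes just given only the Klf2 groups did not overlap.

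The 28 plasticity genes that follow neuronal activity had 14 log2 changes above and 14 below 0, with 9 above and 19 below without saline 1, and 0 past the adjusted threshold (limma). Nrn1, which encodes the surface protein neuritin, was at 14.2, 14.5 and 33.8 FPKM in saline and at 2.16, 9.26 and 5.90 FPKM in cocaine, a log2 change of −1.73 (limma, adjusted p = 0.137). Neuritin mRNA is also abundant in cortical neurons, whose marker values are given above, and their part in this value was not tested. Scg2, the precursor of secretoneurin, was at 251, 202 and 195 FPKM in saline and at 240, 404 and 249 FPKM in cocaine.

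Neuropeptide genes differed in the direction of their values. Pdyn (XLOC_012766, chromosome 2 from 129686565 to 129699844), which encodes prodynorphin of the direct pathway, was at 26.9, 42.6 and 26.3 FPKM in saline and at 67.3, 45.3 and 68.0 FPKM in cocaine, a mean of 31.9 ± 9.23 against 60.2 ± 12.9 FPKM (SD, n = 3). The groups did not overlap, and the gap between cocaine 2 and saline 2 was small. The log2 change of 0.91 missed the adjusted threshold (limma, adjusted p = 0.132) and was 0.80 without saline 1 and 0.99 without both libraries. In WT at ZT7 Pdyn was at 48.7 to 65.4 FPKM in saline and at 59.6 to 98.3 FPKM in cocaine, a log2 change of 0.55, and the difference between the genotypes was 0.36 with a standard error of 0.48. The iMSN-D2RKO saline values were low for the series, since 57 of the 63 other libraries were at or above the highest of them. Penk, the enkephalin precursor of iMSNs, was at 9282, 1983 and 2384 FPKM in saline and at 2589, 2658 and 2426 FPKM in cocaine. Its log2 change was −0.47 with all 6 libraries and 0.23 without saline 1, so its sign depended on that library. Tac1, the substance P precursor, was at 363, 188 and 239 FPKM in saline and at 260, 310 and 266 FPKM in cocaine, with a log2 change of 0.13 with all 6 libraries and 0.39 without saline 1. Oprm1, the µ-opioid receptor gene, was at 0, 1.78 and 2.03 FPKM in saline and at 3.56, 5.52 and 2.45 FPKM in cocaine. Of the 16 peptide and receptor genes, 0 passed the adjusted test (limma), 3 had an unadjusted p under 0.05 with higher values and 1 with lower values, beside 11.9% and 12.2% of all genes tested. Without saline 1 these counts were 1 and 0, beside 2.53% and 2.64% of all genes tested.

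Genes of dopamine and cAMP signalling were split in direction. Of the 34 tested, 16 log2 changes were above and 18 below 0, 0 passed the adjusted test (limma), and the median was −0.06, or 0.09 without both libraries, beside 0.29 in WT. Drd3, which encodes the D3 receptor of the ventral striatum, was at 0, 1.04 and 0.313 FPKM in saline and at 1.67, 2.11 and 1.53 FPKM in cocaine, a log2 change of 0.99 (limma, adjusted p = 0.111) that was 0.75 without saline 1. Pde7b, a cAMP phosphodiesterase gene, was at 40.6, 60.7 and 79.4 FPKM in saline and at 105, 122 and 89.6 FPKM in cocaine. Arpp21, whose product is a cAMP-regulated phosphoprotein of spiny neurons, was at 429, 397 and 536 FPKM in saline and at 653, 750 and 577 FPKM in cocaine. The groups of these 3 genes did not overlap, and in WT their log2 changes were 0.26, 0.51 and 0.42. Gpr52, an orphan receptor gene of iMSNs, was at 3.53 FPKM in saline 1 and at 31.3 to 49.0 FPKM in the other 5 libraries, and its log2 change was 1.14 with that library and 0.09 without it.

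Clock genes form a feedback loop in which Per and Cry proteins hold back their activators. At ZT7, 0 of 10 repressor genes and 0 of 13 activator and output genes passed the adjusted test (limma). Per2 was at 4.83, 7.93 and 10.03 FPKM in saline and at 13.7, 17.4 and 12.6 FPKM in cocaine, without overlap, a log2 change of 0.89 (limma, adjusted p = 0.107) that was 0.64 without saline 1 and 0.08 in WT. Per1, a light- and cAMP-responsive member, was at 21.1, 29.7 and 30.6 FPKM in saline and at 30.8, 22.7 and 31.3 FPKM in cocaine, with overlap. Cry1 was at 11.2, 12.1 and 13.7 FPKM in saline and at 14.6, 14.1 and 16.4 FPKM in cocaine. The activator Arntl was at 10.6, 11.3 and 15 FPKM in saline and at 9.88, 14.4 and 10.03 FPKM in cocaine, and the output gene Dbp was at 392, 119 and 122 FPKM in saline and at 172, 106 and 164 FPKM in cocaine. For Dbp the log2 change was −0.31 with all 6 libraries and 0.25 without saline 1.

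The lipid-sensing nuclear receptor PPARγ was a theme of the study. Its gene Pparg was listed at 0.185 to 0.383 FPKM in the 6 libraries and was below the filter. Rxrg, which encodes the retinoid X receptor γ of the striatum, a partner of PPARs, was at 112, 53.5 and 111 FPKM in saline and at 51.4, 36.0 and 54.3 FPKM in cocaine, with a narrow overlap. Of the genes whose regulation by PPARγ the study tested, Adora2a, the adenosine receptor gene of iMSNs, was at 248, 168 and 230 FPKM in saline and at 205, 87.7 and 191 FPKM in cocaine. The GABA-A receptor subunit gene Gabrd was at 181, 89.6 and 96.9 FPKM in saline and at 91.5, 51.2 and 89.9 FPKM in cocaine, and the potassium channel gene Kcnd1 was at 3.98, 3.53 and 4.06 FPKM in saline and at 4.41, 3.07 and 3.79 FPKM in cocaine. Their groups overlapped. The log2 changes of Adora2a, Gabrd and Kcnd1 were −0.49, −0.63 and −0.04 with all 6 libraries, −0.38, −0.31 and −0.02 without saline 1, and 0.01, −0.04 and 0.09 without both. That list was chosen by the study on this tissue and is no independent evidence. Among 27 lipid genes regulated by PPARs, 9 log2 changes were above and 18 below 0. Their median was −0.13 with all 6 libraries, 0.05 without saline 1 and 0.01 without both. In this list Txnip encodes a thioredoxin-binding protein that responds to glucose. It was at 4.22, 6.57 and 4.31 FPKM in saline and at 10.1, 6.96 and 8.97 FPKM in cocaine, without overlap, a log2 change of 0.69 (limma, adjusted p = 0.1197). Fatty acid-binding protein gene Fabp4 was at 6.06 FPKM in saline 1 and at 0.107 to 0.897 FPKM in the other 5 libraries.

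Receptor and channel genes gave no call. Of 14 GABA-A receptor subunits 13 had log2 changes above 0, with a median of 0.50, which was 0.27 without saline 1 and 0.06 without both libraries. Gria2, the AMPA receptor subunit that limits calcium entry, was at 31.7, 89.9 and 130 FPKM in saline and at 158, 234 and 126 FPKM in cocaine. Among 33 potassium channel genes, Kcnj9, which encodes a subunit of channels opened by G proteins, was at 20.9, 25.8 and 28.5 FPKM in saline and at 16.4, 13.7 and 17.7 FPKM in cocaine, without overlap. Its log2 change was −0.62 with all 6 libraries, −0.74 without saline 1 and −0.71 in WT, and it was not past the adjusted threshold in iMSN-D2RKO (limma, adjusted p = 0.138). Kcnj2, an inward rectifier gene, was at 6.01, 8.11 and 11.2 FPKM in saline and at 15.5, 15.2 and 13.5 FPKM in cocaine, also without overlap.

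Genes of the respiratory chain were mostly lower in value in cocaine. Of 72 nuclear oxidative phosphorylation genes tested, 69 had log2 changes below 0. Of these, 27 had an unadjusted p under 0.05, beside 12.2% of all genes tested, and 0 passed the adjusted threshold (limma). Without saline 1 the count of lower genes at that p was 1, beside 2.64% of all genes tested. The median was −0.71. It was −0.36 without saline 1 and −0.12 without both libraries, and −0.03 in WT. Uqcr11, a small subunit of complex III, was at 1609 FPKM in saline 1, at 387 and 338 FPKM in saline 2 and 3 and at 299, 254 and 314 FPKM in cocaine. The summed level of the list was 38119 FPKM in saline 1, 18080 to 20049 FPKM in saline 2 and 3 and 10860 to 17842 FPKM in cocaine, with cocaine 2 the lowest, and the part of these 2 libraries in the median is given by the values without them. For 28 cytosolic chaperones the median was −0.21 with all 6 libraries, 0.05 without saline 1 and −0.11 without both. In the same list the stress-induced Hspa1a was at 1.61, 1.37 and 1.89 FPKM in saline and at 0.910, 0.626 and 0.584 FPKM in cocaine, without overlap. Hspa1a has a near-identical neighbouring copy, so its reads may be shared. Atf4, the transcription factor gene of the integrated stress response, was at 142, 83.4 and 84.9 FPKM in saline and at 64.8, 55.2 and 74.6 FPKM in cocaine, a log2 change of −0.63 (limma, adjusted p = 0.0968) that was −0.38 without saline 1 and −0.43 in WT. Of 22 ER stress genes, 19 glucocorticoid-induced genes, 17 prostaglandin genes and 24 cholesterol genes 0 passed the adjusted test (limma), and their medians were −0.13, −0.19, −0.01 and −0.13. Without saline 1 they were 0.06, −0.17, 0.07 and −0.09, so the sign of the ER stress and prostaglandin medians depended on that library. Mvd, an enzyme gene of cholesterol synthesis, was at 21.8, 14.3 and 13.3 FPKM in saline and at 9.27, 5.95 and 10.6 FPKM in cocaine, without overlap.

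**Figure D5:**
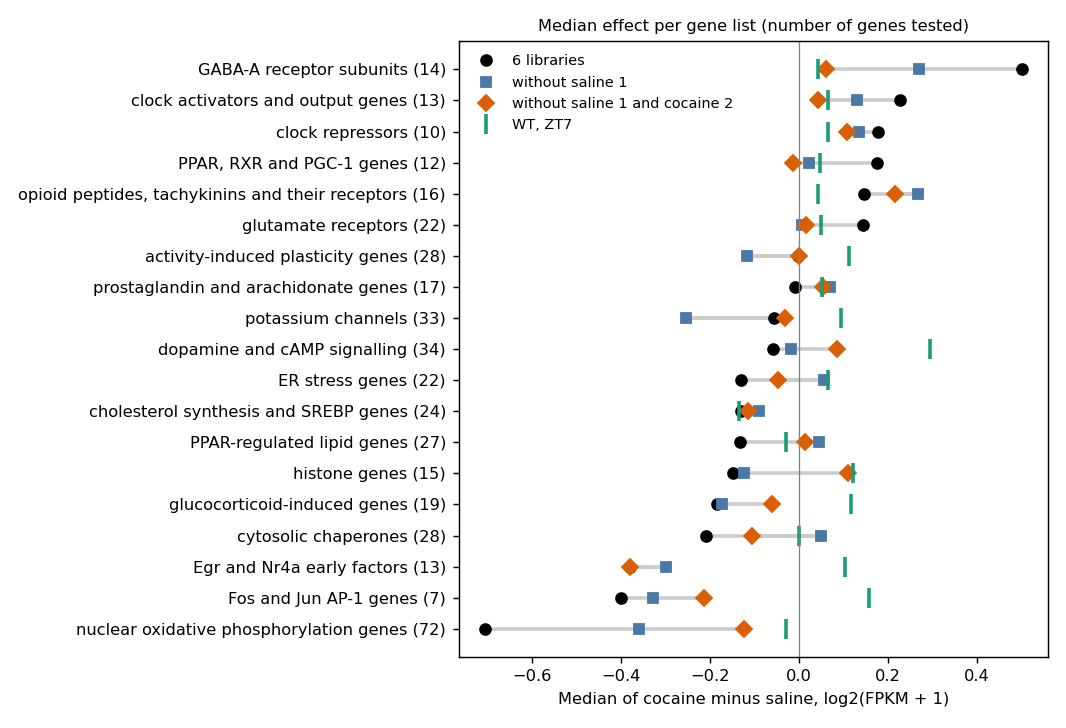
Median change after cocaine on the log2(FPKM + 1) scale for 19 gene lists in iMSN-D2RKO at ZT7, with the number of genes tested in parentheses, for all 6 libraries (circles), without saline 1 (squares) and without saline 1 and the 13 set-apart libraries, of which cocaine 2 is one (diamonds). Vertical ticks give the same lists in WT at ZT7. The respiratory chain list moves from −0.71 to −0.12, whereas the Egr and Nr4a list lies at −0.38, −0.30 and −0.38.

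The effect of cocaine at ZT7 was then compared between the genotypes. It differed in 2 of 13938 genes (limma, interaction contrast, adjusted p under 0.05), 0.0143% of those tested, and 910 genes (6.53%) had an unadjusted p under 0.05. Without saline 1 the effect differed in 0 genes (limma), and 200 genes (1.43%) had an unadjusted p under 0.05. One was Cd72, whose WT libraries had 0.131 to 0.367 FPKM in saline and 0.257 to 0.822 FPKM in cocaine. All WT values of Cd72 were under 1 FPKM, so here too it was tested through the iMSN-D2RKO saline group, where it was high. The log2 change in iMSN-D2RKO minus that in WT was −1.94 with a standard error of 0.380 (limma, adjusted p = 0.0384). The other was Stbd1, which encodes a glycogen-binding protein and lay close to 1 FPKM or below in all 12 libraries. It was at 0.0343, 0.187 and 0.316 FPKM in saline and at 0.951, 0.628 and 0.166 FPKM in cocaine in iMSN-D2RKO, and at 0.872, 1.17 and 0.654 FPKM in saline and 0.141, 0.118 and 0.240 FPKM in cocaine in WT. Only WT saline 2, at 1.17 FPKM, reached the filter of 1 FPKM, so Stbd1 was tested through a single library of a group where it was high. The 3 WT cocaine values lay below the 3 WT saline values, while the iMSN-D2RKO groups overlapped, and the difference was 1.09 with a standard error of 0.196 (limma, adjusted p = 0.0163).

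Among genes with a mean of at least 5 FPKM in the 12 libraries, none passed this test, and the smallest p-values belonged to Tesk1, Slc35c2, Vcp, Spryd3 and Anxa3. Vcp, which encodes an ATPase that extracts proteins for degradation, was at 42.4, 25.4 and 24.7 FPKM in saline and at 14.1, 9.62 and 26.6 FPKM in cocaine in iMSN-D2RKO, and at 13.7 to 14.99 FPKM in saline and 22.2 to 23.8 FPKM in cocaine in WT. Its difference was −1.55 with all libraries and −1.31 without saline 1 (limma, unadjusted p = 0.00133). Spryd3 was at 105, 85.4 and 81.2 FPKM in saline and at 76.3, 59.0 and 80.3 FPKM in cocaine in iMSN-D2RKO, against 39.7 to 45.5 FPKM in saline and 65.6 to 83.4 FPKM in cocaine in WT. For Spryd3 all 3 WT saline values lay below every other value of the 12 libraries. The medians of the Fos and Jun list were −0.40 in iMSN-D2RKO and 0.16 in WT, and the difference between these medians was not tested.

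At later times in iMSN-D2RKO the called genes had other changes. The log2 change of Cd72 was −0.13 at ZT11, 0.11 at ZT15, 0.15 at ZT19 and 0.05 at ZT23, and that of Lsr was 0.01, −0.19, 0.16 and −0.12 at the same times. For Klf4 it was 0.03 at ZT11, −0.03 at ZT15, 0.51 at ZT19 and 0.17 at ZT23. None of these values passed the adjusted test (limma), and 0 genes did so in any of the 4 later comparisons or in WT at ZT7, where 234 genes (1.7%) had an unadjusted p under 0.05. In iMSN-D2RKO 21 genes (0.153%) did so at ZT11, 183 (1.33%) at ZT15, 2268 (16.5%) at ZT19 and 219 (1.59%) at ZT23. At ZT19, 2 of the iMSN-D2RKO saline libraries but no cocaine library were among those that stood apart. Their part in the ZT19 count and in the Klf4 change at that time was not tested.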

How the data were processed

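The authors prepared stranded poly(A) libraries from ventral striatum punches, sequenced single-end reads, aligned them to mm10 with TopHat and Bowtie2 and deposited FPKM per gene from Cufflinks and Cuffnorm; base calling was by CASAVA 1.8.2 per the labels. The annotation release and whether Cufflinks used strand are not given in the sources used here. The table holds 24138 genes in 72 columns, of which 6 repeat the ZT3 libraries, leaving 66 libraries in 22 groups of 3. Read numbers are unknown. Relative depth was derived from the FPKM of 1439 rarely seen genes (above 0 in 3 to 15 libraries) where they were above 0, since a single read is worth more FPKM in a shallower library.

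Genes reaching 1 FPKM in any of the libraries compared were tested with limma 3.58.1 in R 4.3.3 (lmFit, contrasts of 22 group means over 66 libraries, 44 residual degrees of freedom, eBayes with trend) on log2(FPKM + 1), adjusted by Benjamini-Hochberg across the whole tested table at a threshold of 0.05. This scale understates the change of low genes. Drd2 was compared by an exact permutation test of 924 splits. The fit was tested on simulated data in which each gene had the same spread in every library. That test therefore does not cover a distorted library such as saline 1. Positions are from GENCODE M21 (GRCm38, which is mm10) and promoters from RefSeq. Python 3.11.15 was used for summaries.

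Members and the 35 gene lists were chosen with earlier results of these data known, and 3 further lists after the values were seen. Named were the called genes, genes filling 10 per direction by p-value at a mean of at least 5 FPKM, 5 per direction with the widest gap between groups, 5 for the genotype difference, up to 4 per list, genes the study names, and 5 that raise a library's total FPKM. Some genes that the rule names are not reported here. Outside this rule, Alb, Blnk, Ptprc, Cd79a, Ms4a1, Cyp2e1, Fabp1, Mup9, Slc17a7, Pecam1, Fos, Fosb, Egr1, Egr3, Nr4a1 and Tac1 were named after their values were seen. Alternatives were scaling by median ratios, a pseudocount of 0.1, no or a stricter filter, the libraries alone, a library score, library weights, a replicate block and leaving out each replicate. Same-numbered libraries did not deviate together (correlations of −0.136, −0.114 and −0.193 over 9567 genes), so numbers were not treated as pairs.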

Additional observations from a re-analysis of the deposited data

Results flagged for a closer look

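The change after cocaine differed between the genotypes in 2 genes by the interaction test in limma with Benjamini-Hochberg adjustment. For Cd72 the change in iMSN-D2RKO minus that in WT was −1.94 on the log2 scale (adjusted p = 0.0384), and −1.44 without iMSN-D2RKO saline 1 (adjusted p = 0.525). Over 24 alternatives its adjusted p ran from 5.24e-05 to 0.985 and passed in 5. For Stbd1 the difference was 1.09 (adjusted p = 0.0163) and 1.002 without saline 1 (adjusted p = 0.178), and it passed in 10 of 24 alternatives, with adjusted p-values of 0.000232 to 0.985. In the 6 WT libraries Stbd1 was lower in 3 of 3 cocaine libraries, and in iMSN-D2RKO 2 of 3 cocaine libraries were above all saline libraries.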

How the results depend on the processing

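The count of 2 genes called after cocaine moved with most settings. It was 1 with a pseudocount of 0.1, 5 with no filter on low values, 0 at a mean FPKM of at least 5, 0 with the libraries compared alone, 33 with the library score as covariate and 12 with library weights. Leaving out 1 library at a time gave 1 to 2151 calls, 1645 without saline 2, 2151 without saline 3, 5 without saline 1 and 1 without cocaine 1. Settings added after the data were seen gave 0 without the 13 set-apart libraries, 1 without these and saline 1, and, without saline 1, 1 with the libraries alone, 5 with scaling and 1 with a pseudocount of 0.1. Cd72 passed in 8 of 18 alternatives and Lsr in 9 of 18.

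With the replicate block, fitted on the libraries compared alone, 0 genes were called (616 at an unadjusted p under 0.05), as without the block in the same libraries (433), and 0 for the difference between the genotypes (248 against 324). Same-numbered libraries share only a number, and saline 1 deviated most like cocaine 3 (correlation 0.0968).

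The difference between the genotypes, 2 genes, was 0 with a pseudocount of 0.1, at a mean FPKM of at least 5, with the libraries alone, 5 with the library score and 4 with library weights, and 0 to 3 with 1 library left out, with 0 without iMSN-D2RKO saline 1, cocaine 1 or cocaine 2 and without WT saline 1, saline 2 or cocaine 2. It was 0 without the set-apart libraries, 0 without these and saline 1, and, without saline 1, 1 with the libraries alone, 0 with scaling and 0 with a pseudocount of 0.1. The cause was not tested. The Drd2 difference did not pass the test in any of the 14 alternatives. Read numbers are unknown, and saline 1 had the lowest relative depth of the 6 libraries.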

Other observations

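Markers of other cells of the punch gave no call (limma). The 16 oligodendrocyte and myelin markers summed to 2942 to 5131 FPKM in saline and to 3191 to 4496 FPKM in cocaine. Their median log2 change was −0.13 with all 6 libraries and 0.04 without saline 1. Of these markers, 0 had an unadjusted p under 0.05, beside 24.1% of all genes tested. Trem2, a receptor gene of microglia, was at 41.4, 20.8 and 16.4 FPKM in saline and at 17.5, 14.4 and 14.7 FPKM in cocaine, and saline 1 was again the highest library. Of 11 astrocyte markers 6 had log2 changes above 0 and 5 below, and without saline 1 there were 4 above and 7 below. Slc1a3, a glutamate transporter gene of astrocytes, was at 86.4, 113 and 110 FPKM in saline and at 117, 222 and 120 FPKM in cocaine, without overlap, with cocaine 2 far above the rest. Aldoc, an astrocyte aldolase gene, was at 456, 306 and 244 FPKM in saline and at 245, 231 and 254 FPKM in cocaine.

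Some genes of hypothalamus, septum or basal forebrain also differed between libraries. Of 18 such markers tested, 11 log2 changes were above and 7 below 0. The median was 0.28 with all 6 libraries, 0.14 without saline 1 and 0.05 without both. Their summed levels overlapped, at 127, 215 and 102 FPKM in saline and at 166, 266 and 157 FPKM in cocaine. Dlk1, an imprinted gene used as such a marker, was at 1.54, 8.13 and 1.36 FPKM in saline and at 9.33, 27.6 and 8.14 FPKM in cocaine. Peg10 was at 3.93, 15.9 and 6.24 FPKM in saline and at 20.0, 44.8 and 16.7 FPKM in cocaine, so in both genes saline 2 lay closest to the cocaine group. Hcrt, which encodes the hypothalamic peptide orexin, was at 4.27 FPKM in saline 2, 1.11 in saline 1 and at most 0.205 in the other 4 libraries. Rgs5, a pericyte gene, was at 3.10 FPKM in saline 1 and at 22.04 to 29.02 FPKM in the other 5.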
